A study of Drosophila melanogaster with 26 samples.

Results

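ACF1 antibodies were used for chromatin immunoprecipitation and sequencing (ChIP-seq) of embryos that lack ACF1, and the peaks called there were set against those of the input chromatin, which was sequenced without an antibody. Of the 26 libraries of the study, 5 belong here, chosen by their labels: 1 made with the Rb1 antibody, 2 made with the Rb2 antibody and 2 acf1 inputs. They hold 9808 of the 50336 peaks of the study, and 9394 of these come from the 3 antibody libraries. All embryos were Drosophila melanogaster, labelled as Oregon-R in strain, collected 0 to 12 h after egg laying and fixed with 3.7% formaldehyde. The acf1 embryos carried the acf1-7 allele, which arose by imprecise excision of a P-element and has lost sequence from the 5' end of the gene. The loss of the protein is taken from the study's description and was not checked in the peak lists. Wild-type (WT) embryos and embryos with the allele rsf1-3602, made in the same way and called rsf-1 here, served for comparison. Rb1 and Rb2 are polyclonal antibodies from rabbits that were immunized with a C-terminal part of ACF1, which lies beyond the deleted stretch of the gene. The Rb1 library and replicate 1 of Rb2 were made from chromatin batch 4 and share its input, whereas replicate 2 of Rb2 and its input came from batch 5. No WT library was made from either batch, so that genotype and batch cannot be told apart in any comparison with WT.

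ACF1 is the signature subunit of the nucleosome remodeling complexes ACF and CHRAC, in which it joins the ATPase ISWI, an enzyme that slides and spaces nucleosomes. In a ChIP experiment a peak marks a stretch of DNA recovered more often than its surroundings, and the same antibody on chromatin without its target is the control for recovery that does not need the target. Input peaks show where fragments pile up without any antibody. In flies such places include repeat-rich heterochromatin, which Release 5 of the genome holds as separate mapped sequences (named Het) and as unplaced sequence (U). Chromosome 4 is a small chromosome rich in heterochromatin, although it counts as 1 of the 6 chromosome arms here.

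Without antigen the antibodies still gave long lists of peaks, and nearly all of these peaks lay outside the peaks of the input. The Rb1 library held 1984 peaks. With Rb2, 2226 peaks were called in replicate 1 and 5184 in replicate 2. The inputs held 221 peaks in batch 4 and 193 in batch 5. All 3 antibody libraries thus lay above both inputs, by 8.98-fold for Rb1, 10.1-fold for replicate 1 of Rb2 and 26.9-fold for replicate 2, each against the input of its own chromatin. On the log2 scale, after adding 1, antibody and input libraries differed by 3.77 on average (exact permutation test over libraries, two-sided, n = 3 and 2, p = 0.1, adjusted p = 0.133 over 4 tests). This p-value is the smallest that the 10 possible splits allow, so that no comparison with the inputs could pass the threshold of 0.05. The lists carry no score and no number of reads, and the study gives its sequencing depth only as a range over all samples, so that a longer list cannot be told apart from a more deeply sequenced library.

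The gain over input was largest on the chromosome arms. Rb1 had 1615 peaks on the arms against 35 in its input, which is 46.1-fold more. In replicate 1 of Rb2 there were 1935 arm peaks, or 55.3 times the number in the same input, and in replicate 2 there were 5008 against 31, or 162-fold more. Off the arms, on the Het and U sequences, the numbers were 369, 291 and 176 for Rb1 and the Rb2 replicates against 186, 186 and 162 in their inputs. The antibody libraries exceeded the inputs there by 1.98-, 1.56- and 1.09-fold, so that the longest list had nearly the same number of such peaks as its input. Off the arms the gain was larger on the mapped heterochromatin than on U. On the Het sequences Rb1 had 187 peaks and replicate 1 of Rb2 had 133 against 50 in their input, and replicate 2 had 69 against 37. For Rb1 it was 6.10-fold on 3LHet, 3.75-fold on 3RHet and 2.69-fold on 2RHet. On U, replicate 2 of Rb2 had 107 peaks and its input 125, whereas Rb1 had 182 against 136. No peak was called on the mitochondrial genome or on YHet in any of the 5 libraries.

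**Figure D1:**
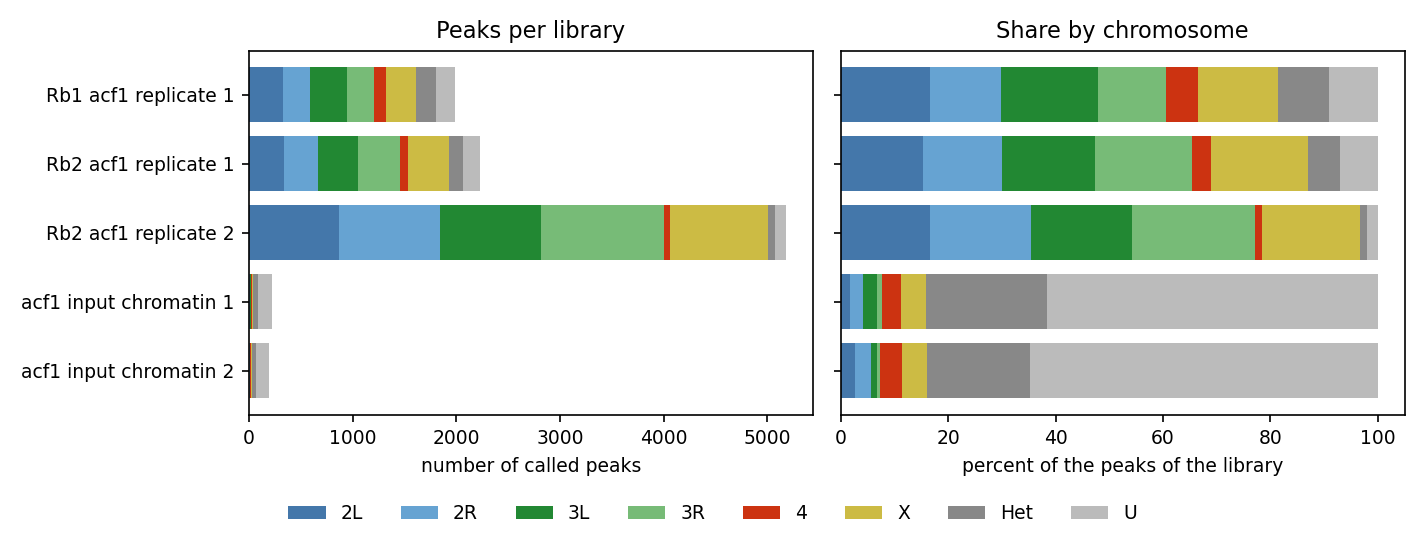
Number of called peaks per library (left) and percent of the peaks of each library (right) by chromosome, with Het and U for the sequences off the arms, in the 3 antibody libraries of acf1 chromatin and the 2 acf1 inputs. The antibody libraries have 1615 to 5008 arm peaks against 31 to 35 in the inputs, and Het and U together fill 3.40 to 18.6% of the antibody bars against 83.9 and 84.2% of the input bars.

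Peaks off the arms made up 18.6% of the Rb1 list, 13.1% of replicate 1 of Rb2 and 3.40% of replicate 2. In the inputs this share was 84.2% and 83.9%. The difference of the means was -72.4 percentage points, with no overlap between antibody and input libraries (exact permutation test, n = 3 and 2, p = 0.1, adjusted p = 0.133). Among arm peaks, chromosome X took 18.3%, 20.7% and 18.8% in the antibody libraries against 28.6% and 29.0% in the inputs, a difference of -9.56 points (exact permutation test, n = 3 and 2, p = 0.1, adjusted p = 0.133). The input shares rest on only 35 and 31 arm peaks. Chromosome 4 held 117 peaks with Rb1, 79 with replicate 1 of Rb2 and 67 with replicate 2, against 8 in each input. It took 7.24%, 4.08% and 1.34% of the arm peaks in the antibody libraries against 22.9% and 25.8% in the inputs. All antibody libraries thus lay below the inputs in this share, and both libraries of batch 4 lay above the library of batch 5. The longest list therefore had the fewest peaks both on chromosome 4 and off the arms.

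Peaks were counted as shared when at least 50 bp overlapped. Of the Rb1 peaks, 116 (5.85%, exact 95% confidence interval 4.86 to 6.97%) overlapped a peak in the input of the same chromatin. The number was 121 (5.44%, 4.53 to 6.46%) for replicate 1 of Rb2 and 122 (2.35%, 1.96 to 2.80%) for replicate 2. These intervals cover counting error only and treat peaks as independent. From the other side, 52.5% of the input peaks of batch 4 were called with Rb1 and 54.8% with Rb2, and 63.2% of those of batch 5 with Rb2. The input peaks were thus recovered in part by every antibody library and added little to any of the lists. Whether peaks were called against the input is not known. If they were, the calling itself would lower this overlap. It could also lower the numbers of antibody peaks off the arms, where most input peaks lay. Neither was tested. Only 17, 16 and 16 of the arm peaks in the 3 libraries had a peak in their own input. After removal of the peaks shared with the own input, 1868 peaks remained for Rb1, 2105 for replicate 1 of Rb2 and 5062 for replicate 2.

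The 3 libraries overlapped unequally. Rb1 and Rb2 on the same chromatin shared 888 peaks, which is 44.8% of the Rb1 list and 39.9% of the Rb2 list. Both Rb2 libraries, from different batches of chromatin, shared 1340 peaks, or 60.2% of replicate 1 and 25.8% of replicate 2. Rb1 and replicate 2 of Rb2, which have neither antibody nor batch in common, shared 640 peaks, or 32.3% of the Rb1 list and 12.3% of the longer list. On the arms, 64.7% of the peaks of replicate 1 of Rb2 were found in replicate 2, and 43.2% of the Rb1 peaks were found in replicate 1 of Rb2. Off the arms, 65.3% of the peaks of replicate 1 of Rb2 were found with Rb1 on the same chromatin and 30.6% with Rb2 on the other chromatin. Replicate 2 of Rb2 had fewer peaks off the arms than replicate 1, and 50.6% of them were found in replicate 1. These shares favour the longer partner list. As a share of the merged regions of a pair, the libraries on the same chromatin overlapped by 26.7% (24.5% on the arms and 40.4% off the arms) and those with the same antibody by 22.1% (22.0% and 23.5%). The order on the arms thus depended on the measure, whereas off the arms the pair on the same chromatin was ahead by both. With 1 pair of each kind, these differences have no replicate check.

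As a share of the shorter list, the 3 antibody libraries overlapped one another by 45.7% ± 14.0 (SD over 3 pairs) and overlapped the inputs by 57.3% ± 4.78 (SD over 6 pairs), a difference of -11.6 points (exact permutation of the library labels, n = 3 and 2, p = 0.3, adjusted p = 0.3). The inputs shared 146 peaks with each other, or 75.6% of the shorter list. As a share of the merged regions of each pair the difference was 15.2 points, with 9.80 to 26.7% for antibody pairs and 2.17 to 5.68% for pairs with an input. The short input lists cap that share at 3.72 to 11.1% for a pair with an input. For antibody pairs the cap was 38.3 to 89.1%, so that list length favours them. No direction is read from this difference. Without the Rb1 library the difference in the share of the shorter list was 2.54 points, so that this library decided its sign.

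The peaks of the 3 antibody libraries were merged into 7068 regions. Of these, 199 (2.82%) overlapped a peak in either acf1 input, 30 of them on the arms and 169 off the arms. An input peak was found at 30.8% of the regions off the arms and at 0.460% of those on the arms. The other 6869 regions, 6490 on the arms and 379 off the arms, overlapped no acf1 input peak and are termed regions beyond input. Among the 3 libraries, 5245 of these regions (76.4%) were called in 1 library, 1150 (16.7%) in 2 and 474 (6.90%) in all 3. Of the 5245, 1360 were in no other list of the study, and no background share was computed for this count. The share in no other list was 67.4% for Rb1 alone, 56.1% for replicate 1 of Rb2 alone and 10.5% for replicate 2 of Rb2 alone. Replicate 2 of Rb2 alone gave 3712 of the single-library regions. When it was left out, 3160 regions remained, 758 of them in both of the other libraries. Rb1 alone gave 996 regions and replicate 1 of Rb2 alone gave 537. Regions shared by exactly 2 libraries numbered 781 for both Rb2 libraries, 286 for both libraries of batch 4 and 83 for Rb1 with replicate 2 of Rb2.

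**Figure D2:**
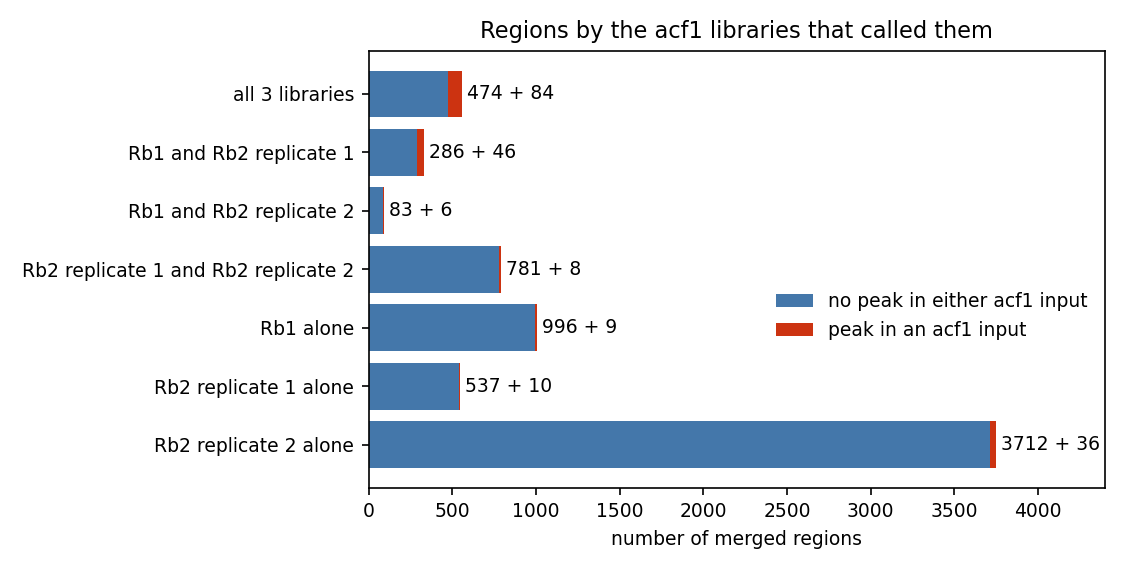
Number of merged regions by the set of acf1 antibody libraries that called them, without (blue) and with (red) a peak in an acf1 input. The numbers beside the bars give both, and replicate 2 of Rb2 alone has the longest bar with 3712 regions beyond input, against 474 for all 3 libraries.

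The sets differed in where they lay. Of the 474 regions called in all 3 libraries, 462 were on the arms and 12 off the arms (2.53%). Chromosome X held 125 of them, 27.1% of those on the arms. The 781 regions of both Rb2 libraries were much alike in this respect, with 0.256% off the arms and 24.4% of the arm regions on X. In contrast, the 286 regions of both batch 4 libraries had 23.8% off the arms, 8.26% of the arm regions on X and 14.7% on chromosome 4. Rb1 alone had 16.8% off the arms and 7.96% of its arm regions on chromosome 4, and replicate 1 of Rb2 alone had 15.6% and 6.18%. Replicate 2 of Rb2 alone had 1.21% and 1.28%. Regions off the arms and on chromosome 4 thus made up larger shares of the sets called in batch 4 alone, with either antibody or both, than of the sets that batch 5 called.

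By chromosome, 10.9% of the regions beyond input on X were called in all 3 libraries (125 of 1146, exact 95% confidence interval 9.16 to 12.9%). The share was 6.84% on 2L, 6.02% on 2R, 5.69% on 3L, 6.81% on 3R and 5.35% on chromosome 4 (10 of 187). Off the arms it was 3.17% (12 of 379, 1.65 to 5.47%). X stood above the other large arms, whose intervals end at 8.41% or below, and regions on an arm share the same 3 libraries, so that this difference was not tested over samples. On chromosome 4, 58.8% of the regions were called with Rb1, 38.5% in replicate 1 of Rb2 and 32.6% in replicate 2. On 3R the order was reversed, with 18.1%, 28.7% and 85.0%.

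Examples of regions called in all 3 acf1 libraries and in neither acf1 input were taken by position, the first ones of each arm named here, with Release 5 coordinates. On 2L these were 2L:277163-277423 and 2L:490128-490356, on 3L 3L:506071-506314 and 3L:540514-540829, and on 3R 3R:46552-46796 and 3R:539808-540046. On chromosome 4 they were 4:89274-89511 and 4:230679-230955, and on X X:139829-140098 and X:173393-173726. These 10 regions were 229 to 334 bp wide, and genes at these positions were not analysed here. Each was also called with the RSF-1 antibody in chromatin that lacks RSF-1, in both RSF-1 libraries of WT chromatin and in 3 or 4 of the 4 WT libraries of Rb1 or Rb2, and none had a peak in any of the 10 inputs or 3 pre-immune libraries. The widest merged regions beyond input were X:13888900-13889380 (481 bp), X:17001481-17001932 (452 bp) and 3L:17662108-17662503 (396 bp), all called in all 3 libraries. The deposited peaks are 200 bp wide with few exceptions, so that such widths come from peaks that overlap with an offset.

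Regions called in all 3 antibody libraries and in an input as well numbered 84, and 72 of these were in both acf1 inputs, 11 of them on the arms. On the arms the first by position were 3L:20816232-20816460, which 2 of the 10 inputs called, and 4:1284266-1284617, which 4 inputs called and no other antibody library did. Off the arms, 2LHet:367923-368123 was called in all 10 inputs and in all 4 WT libraries of Rb1 or Rb2. The region 2RHet:2-152, at the very start of its sequence, was called in 8 inputs, and 2RHet:1004281-1004487 in 2. These regions differ from the ones above in that at least 1 pre-immune library called 4 of the 5.

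Peaks called by several libraries lay close to one another. The centres of shared peaks beyond input were a median of 23 bp apart for Rb1 and replicate 1 of Rb2 (761 peaks), 25 bp for both Rb2 libraries (1253 peaks) and 30 bp for Rb1 and replicate 2 of Rb2 (552 peaks). These distances are small beside the 200 bp width of a peak, but the required overlap of 50 bp bounds them. Neighbouring regions beyond input on the arms lay a median of 9344 bp apart, and 10.2% of the gaps were under 1 kb. In windows of 50 kb, 1988 windows held at least 1 region and the median of these was 3. The fullest were 3L:15800001-15850000 with 14 regions, and 2L:22100001-22150000 and 4:200001-250000 with 13 each. In the window on 3L, 12 of the 14 regions were called in 1 library, 4 of them from Rb1 alone and 1 from replicate 1 of Rb2 alone. In the window on 2L, 12 of the 13 regions were called in 1 library and 7 of these were from Rb1 alone. The window on chromosome 4 had 9 such regions, 6 of them from Rb1 alone.

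The sets of regions were formed without the other libraries of the study, whose lists were scored next. RSF-1 is the signature subunit of another ISWI complex, and its antibody was also applied to chromatin of rsf-1 embryos, which lack RSF-1, so that this library is likewise made without its antigen. Of the regions called in all 3 acf1 libraries, 442 (93.2%, exact 95% confidence interval 90.6 to 95.3%) had a peak there, where 38.5% of all merged regions of the other lists did. The share was 91.9% for the regions of both Rb2 libraries, 77.6% for replicate 2 of Rb2 alone and 74.7% for Rb1 with replicate 2 of Rb2. It was 4.55% for the regions of both batch 4 libraries, 2.11% for Rb1 alone and 4.10% for replicate 1 of Rb2 alone. The 4 sets called in batch 5 thus lay above the background and the 3 sets called in batch 4 alone far below it. These 3 sets exclude by definition every region of replicate 2 of Rb2, and 80.6% of the peaks of that library were called in this RSF-1 library. The contrast therefore depends in part on how the sets were formed. Batch 5 is represented by 1 antibody library, which also has the longest list, so that batch and list length cannot be told apart here. Lists were also cut to their first entries, to the length of the shortest. The share was then 36.2% for both batch 4 libraries, 28.2% for replicate 1 of Rb2 alone and 6.40% for Rb1 alone. The background of 38.5% comes from the full lists, and none was computed for the cut lists.

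**Figure D3:**
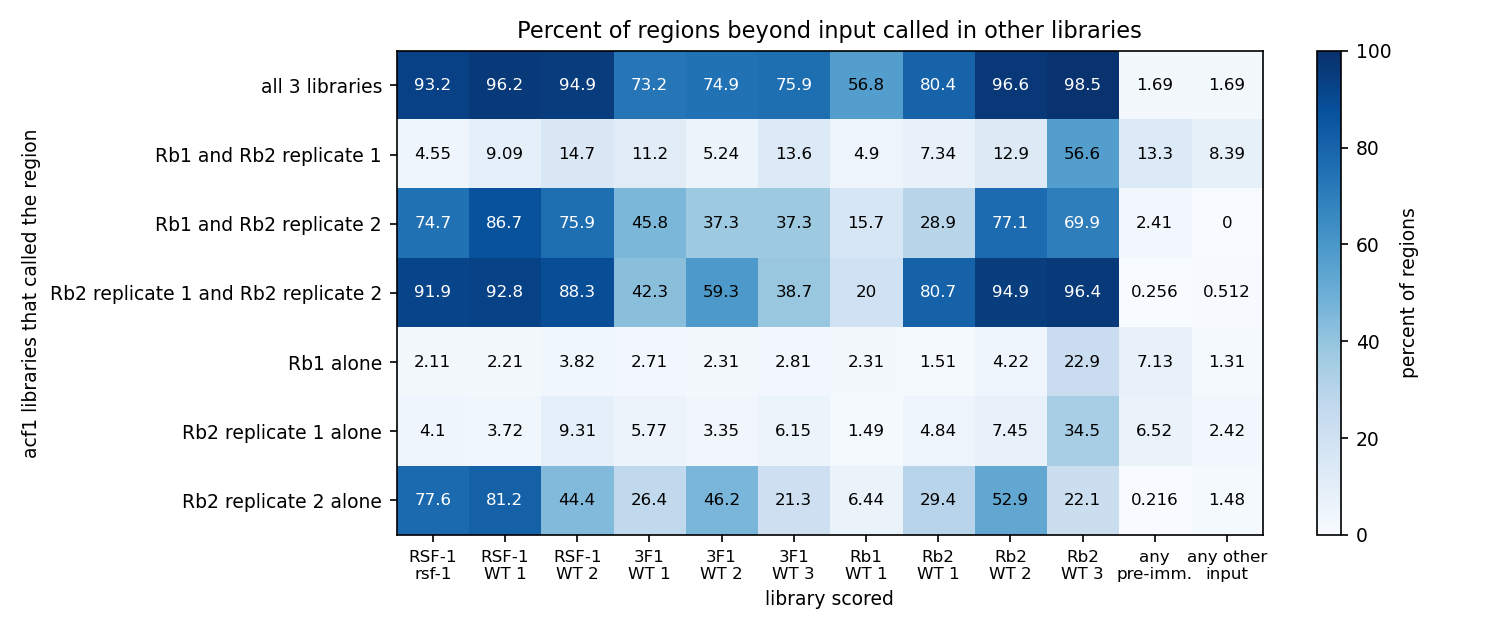
Percent of the regions beyond input in each set (rows) that were also called in other libraries (columns), printed in each cell and shaded from 0 to 100%. The 3 sets called in batch 4 alone reach 2.11 to 4.55% in the RSF-1 library of rsf-1 chromatin, and the other sets 74.7 to 93.2%.

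The same regions were also called where ACF1 was present. Of the 474 regions of all 3 acf1 libraries, 472 (99.6%) were called in at least 1 of the 4 WT libraries of Rb1 or Rb2, where the background was 38.4%, and 259 (54.6%) in all 4 of them, where it was 4.24%. At least 1 of the 2 RSF-1 libraries of WT chromatin called 463 (97.7%, background 42.8%), replicate 1 calling 96.2% (background 40.6%) and replicate 2 calling 94.9% (background 25.5%). The monoclonal antibody 3F1, which recognizes the N-terminal part of ACF1, called 401 (84.6%, background 30%) in at least 1 of 3 WT libraries. Its replicates called 73.2%, 74.9% and 75.9%, where the background was 17.5%, 26% and 14.9%. Each of the 10 other antibody libraries, whatever its antigen, called the greater part of these regions, from 56.8% in the WT library of Rb1 to 98.5% in replicate 3 of Rb2. In every one of them at once, 221 regions (46.6%) were called, and none was without a peak in at least 1 other antibody or pre-immune library. No background share was computed for either count. In no input of any genotype were 466 of them called, in a set from which regions with an acf1 input peak had been removed. A WT or rsf-1 input called the other 1.69%, where the background was 3.72%. Only 1 region of all 3 acf1 libraries, 3L:16602318-16602583, had no peak in any input or in any WT library of Rb1 or Rb2. Of the other antibody libraries, 2 of the 3 made with 3F1 called it.

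The lists made with pre-immune serum, taken before the rabbits were immunized, were short, and few merged regions of any list were called in them. At least 1 of 3 pre-immune libraries of WT chromatin called 8 (1.69%) of the regions of all 3 libraries, 0.256% of those of both Rb2 libraries and 0.216% of those of replicate 2 of Rb2 alone, where the background was 2.56%. Among the sets called in batch 4 alone it was 13.3% for both libraries, 7.13% for Rb1 alone and 6.52% for replicate 1 of Rb2 alone. The sets that the RSF-1 antibody missed were therefore the ones in which the pre-immune lists had the largest shares. One at a time, the pre-immune libraries called 1.48%, 0% and 0.422% of the regions of all 3 acf1 libraries (Rb2 replicates 1 and 2 and Rb, background 2.29%, 0% and 1.21%). Their lists held 621, 1 and 379 peaks. A WT or rsf-1 input called 1.69% of the regions of all 3 libraries and 8.39% of the regions of both batch 4 libraries, where the background was 3.72%.

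The regions called in batch 4 alone came back in 1 WT library above the others. Replicate 3 of Rb2 from WT chromatin (batch 8) called 56.6% of the regions of both batch 4 libraries, 22.9% of those of Rb1 alone and 34.5% of those of replicate 1 of Rb2 alone, where the background was 23.2%. The remaining WT libraries of these antibodies, Rb1 and replicates 1 and 2 of Rb2, called 4.90%, 7.34% and 12.9% of the first of these sets, where the background was 6.43%, 18.1% and 28.6%. They called 2.31%, 1.51% and 4.22% of the second set and 1.49%, 4.84% and 7.45% of the third. The library of batch 8 was thus above the others for all sets called in batch 4 alone, while for Rb1 alone it lay at its own background. For the regions of all 3 acf1 libraries the same WT library called 98.5%. Within batch 4, regions in no other list of the study numbered 671 for Rb1 alone (67.4%) and 301 for replicate 1 of Rb2 alone (56.1%). For replicate 2 of Rb2 alone the number was 388 (10.5%). No background share was computed for these numbers. For arm regions that the RSF-1 library of rsf-1 chromatin missed, the median distance to its nearest peak was 12295 bp for Rb1 alone (810 regions), 11396 bp for replicate 1 of Rb2 alone (433 regions) and 10744 bp for both batch 4 libraries (208 regions). It was 6789 bp for replicate 2 of Rb2 alone (820 regions), 8958 bp for all 3 libraries (29 regions), 8223 bp for Rb1 with replicate 2 of Rb2 (21 regions) and 2528 bp for both Rb2 libraries (63 regions).

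The entries of the peak lists are not sorted by position, and what their order stands for is not stated in the sources used here. Each list was split into 5 parts in file order. In the Rb1 list, 84.1% of the first part, 50.1% of the second and 5.54%, 2.77% and 2.27% of the rest were called in the RSF-1 library of rsf-1 chromatin. For replicate 1 of Rb2 the shares were 93.3%, 88.8%, 78.2%, 13.7% and 3.37%, and for replicate 2 they were 94.4%, 90.5%, 88.8%, 79.0% and 50.1%. The share thus fell along all 3 lists, and it fell earliest with Rb1. For the pair on the same chromatin the course depended on the list. Overlap with Rb1 was 48.9%, 32.4%, 38.9%, 45.4% and 33.9% along the list of replicate 1 of Rb2. Along the Rb1 list, overlap with replicate 1 of Rb2 fell, with 85.4%, 63.7%, 30.5%, 25.4% and 18.7%. Peaks off the arms went the other way. They were 4.93% of the first and 25.2% of the last part for replicate 1 of Rb2, 0.868% and 11.9% for replicate 2 and 14.6% and 26.8% for Rb1. Chromosome 4 held 1.76% of the first part of the Rb1 list and 9.34% of the last. In the WT library of Rb1, the RSF-1 share was 93.5% in the first part and 22.5% in the last. In the WT libraries of Rb2 it went from 97.7 to 49.7% in replicate 1, from 96.8 to 46.6% in replicate 2 and from 95.6 to 2.40% in replicate 3. A decline along the list was thus not confined to acf1 chromatin.

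**Figure D4:**
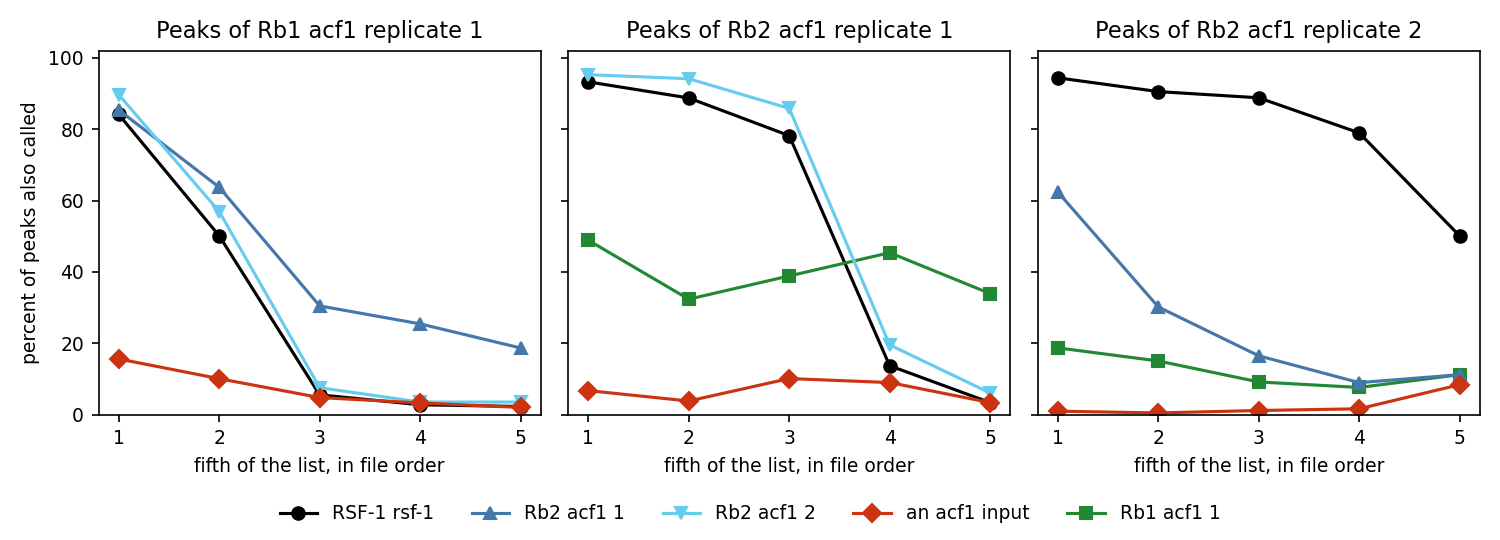
Percent of the peaks in each of 5 successive parts of a list, in file order, that were also called in the RSF-1 library of rsf-1 chromatin, in the other acf1 antibody libraries or in an acf1 input, 1 panel per antibody library. The RSF-1 share drops from 84.1% to 2.27% with Rb1, from 93.3% to 3.37% in replicate 1 of Rb2 and from 94.4% to 50.1% in replicate 2.

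Shared peaks that the RSF-1 antibody also found were closer together than the others. For Rb1 and replicate 1 of Rb2, the median distance between centres was 18 bp for the 443 shared peaks called in the RSF-1 library of rsf-1 chromatin and 37 bp for the 318 that were not. The medians were 24 and 35 bp for both Rb2 libraries, and 29 and 48.5 bp for Rb1 with replicate 2 of Rb2. The direction was the same in the 3 pairs, which share libraries.

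The libraries without antigen were last compared with the 4 WT libraries made with the same antibodies, to ask where loss of the antigen changed what was called. The WT lists held 1001 peaks with Rb1 and 2556, 4009 and 3755 with Rb2, so that the acf1 lists, at 1984, 2226 and 5184, overlapped their range. Peaks off the arms took 11.7% ± 7.70 (SD, n = 3) in acf1 and 12.6% ± 8.50 (SD, n = 4) in WT, a difference of -0.91 points (exact permutation test, two-sided, p = 0.943, adjusted p = 0.943 over 4 tests). The share of arm peaks on X was 19.2% ± 1.27 and 20.4% ± 1.45, a difference of -1.21 points (exact permutation test, n = 3 and 4, p = 0.314, adjusted p = 0.629). A peak in the input of the same chromatin was found at 4.55% ± 1.91 and 7.30% ± 6.27 of the peaks, a difference of -2.76 points (exact permutation test, n = 3 and 4, p = 0.657, adjusted p = 0.876). The RSF-1 library of rsf-1 chromatin called 55.0% ± 25.8 of the acf1 peaks and 73.7% ± 13.9 of the WT peaks, a difference of -18.7 points (exact permutation test, n = 3 and 4, p = 0.314, adjusted p = 0.629). It was -5.71 points without Rb1 and -31.5 points without replicate 2 of Rb2 in acf1. The smallest p-value that 35 splits allow is 0.0286, and libraries from the same chromatin were treated as independent. None of these shares differed beyond the spread between libraries, which does not show that they are alike.

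**Figure D5:**
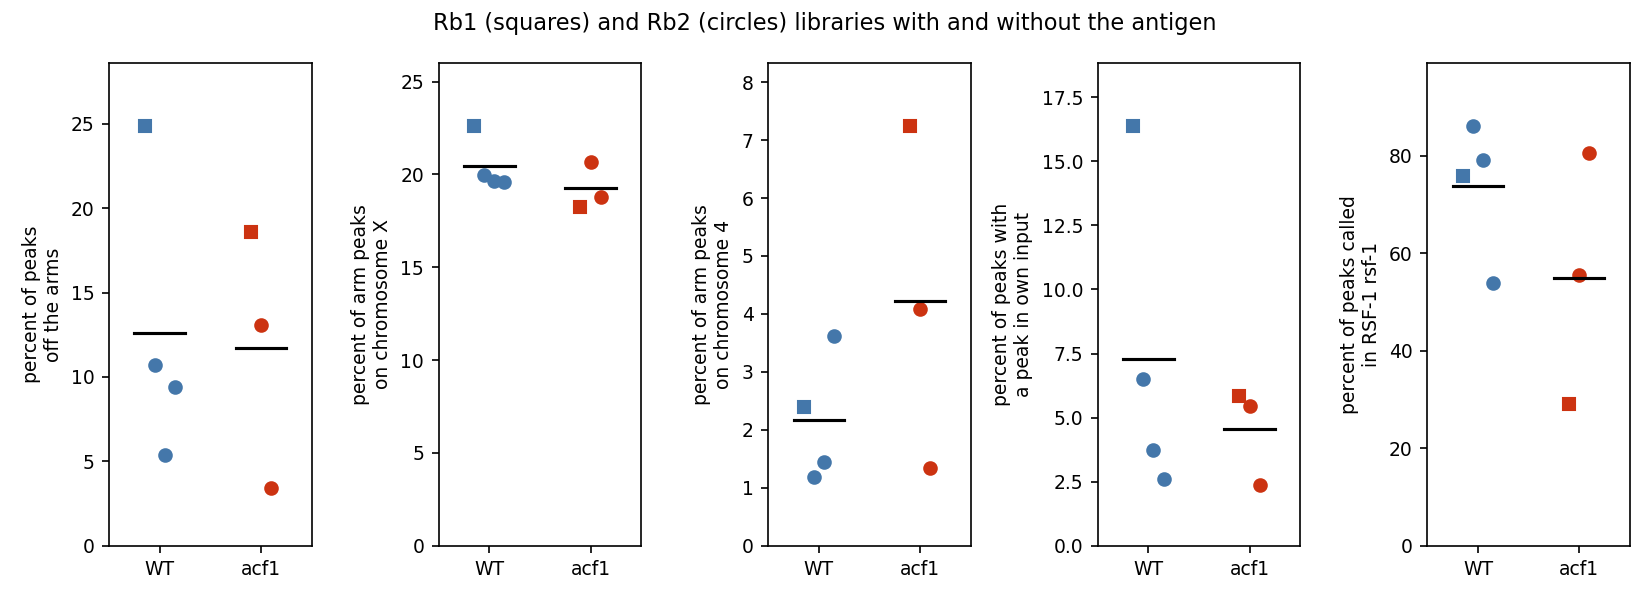
Shares of peaks with a given property in the 4 WT and 3 acf1 libraries made with Rb1 or Rb2, 1 point per library, with the means as lines. The groups overlap in each panel, and the RSF-1 share spans 29.0 to 80.6% in acf1 and 53.8 to 86.2% in WT.

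Within acf1 the RSF-1 share ran from 29.0% with Rb1 over 55.5% to 80.6% in the Rb2 replicates, and both libraries of batch 4 lay below the library of batch 5. In WT the lowest share, 53.8%, was that of batch 8. On chromosome 4, the share of arm peaks averaged 4.22% in acf1 (1.34 to 7.24%) and 2.16% in WT (1.18 to 3.62%), a difference of 2.06 points in a comparison added after the data were seen (exact permutation test, n = 3 and 4, p = 0.257). It was 0.55 points without Rb1 and 3.50 points without replicate 2 of Rb2 in acf1. The gain of antibody over input, as the difference of log2 peak numbers within a batch, was 3.24 in batch 4 and 4.74 in batch 5. In the WT batches 6, 7 and 8 it was 2.67, 3.92 and 3.88. The acf1 mean exceeded the WT mean by 0.50 (exact permutation test over 2 and 3 batches, two-sided, p = 0.6, smallest possible p = 0.1), and without replicate 2 of Rb2 the difference was -0.25. The antibodies thus gave more peaks than the input in all 5 batches, with antigen and without it, and the gains of the 2 acf1 batches differed from each other by more than the acf1 and WT means did.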

How the data were processed

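Members and lists were chosen with earlier results of these data known. Per the labels, chromatin of 0 to 12 h embryos was precipitated with Rb1 or Rb2 and sequenced beside its input. The submitters' processing notes name Bowtie 1.1.1 and HOMER and the build dm3 (Release 5). The authors deposited 1 peak list per library, whose values are positions (chromosome, start and end) and not a read count or score, so that depth per library is unknown. In the paper's supplement every ChIP library is matched to a control input. The sources used here do not state whether peaks were called against that input or how entries were ordered.

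Coordinates are 1-based (deposited start plus 1). Peaks were merged and called shared at an overlap of at least 50 bp. A region was beyond input when no peak of either acf1 input overlapped it. Off the arms means the Het and U sequences and the mitochondrial genome. Background shares are those of all merged regions of the other lists with no acf1 input peak, the acf1 lists included. Peak numbers entered as log2(peaks + 1), with two-sided exact permutation tests over libraries and Benjamini-Hochberg adjustment within the 4 tests against input and within the 4 against WT. P-values measure the spread between these libraries, and those of batch 4 share chromatin. Binomial intervals are exact.

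Regions were named by position (the first 2 per arm called in all 3 libraries and no acf1 input, the first 2 on and 3 off the arms also in both acf1 inputs), by absence from inputs and from WT libraries of Rb1 or Rb2, by width (the widest 3) and by density (the fullest 3 windows of 50 kb), none on 2R. The labels' batch number pairs each ChIP with its input, and replicate numbers pair no acf1 with a WT library. Alternatives were an overlap of at least 1 or 150 bp, arms alone, untransformed numbers, other input filters, replicate blocks and each library left out. The software was scipy 1.17.1 and numpy 2.4.6 under Python 3.11.15, with matplotlib 3.10.9 for plots, and merging was tested on simulated data. The loss of antigen, genes and promoters were not analysed here, since no Release 5 annotation was used.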

Additional observations from a re-analysis of the deposited data

Results flagged for a closer look

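Among the 4 WT libraries of Rb1 or Rb2, which serve as the comparison for the libraries without antigen, the Rb1 library stood apart in the share of arm peaks on X. It had 22.6%, whereas the Rb2 libraries had 19.6 to 19.9%. Its list was the shortest of the 4, with 1001 peaks. A sample stands out in this way by chance in about 1 of 20 groups, and 6 measures were looked at. The acf1 group, with 3 libraries, was too small for this.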

How the results depend on the processing

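Of 137 alternatives, 117 were counted as unchanged, 6 reversed a difference and 14 moved a value. Unchanged means the same direction and call for a test. Region counts have neither, and there it means a change within 1.5-fold. For shares of regions it means a value within the exact 95% confidence interval. No test passed the threshold in any setting. Only exact permutation tests of all 3 acf1 against all 4 WT libraries could, with a smallest possible p of 0.0286. The other tests and settings had too few splits. The overlap among antibody libraries against that with inputs was -11.6 points, reversed to 15.2 as a share of merged regions, where list length favours the antibody pairs, and ran from -24.8 to 2.54 as libraries were left out. Leaving out libraries in the comparison with WT gave -4.36 to 3.24 points for peaks off the arms (3.24 without replicate 2 of Rb2 in acf1, 3.19 without Rb1 in WT), -4.33 to 0.272 for peaks in the own input (0.272 without Rb1 in WT) and -0.25 to 0.72 for the gain over input in log2 (-0.25 without replicate 2 of Rb2 in acf1). The RSF-1 share ran from -31.5 to -5.71 points and chromosome 4 from 0.55 to 3.50, the ends being without replicate 2 of Rb2 and without Rb1 in acf1. The cause was not tested. Regions beyond input numbered 3160 to 6341, and those in at least 2 libraries 550 to 1252 (550 without replicate 1 and 758 without replicate 2 of Rb2). On the first entries of each list, to the length of the shortest, a setting added after the data were seen, 4024 regions were beyond input. The share called in the RSF-1 library of rsf-1 chromatin was then 99.4% for all 3 libraries, 36.2% for both batch 4 libraries, 94.8% for both Rb2 libraries, 6.40% for Rb1 alone, 28.2% for replicate 1 of Rb2 alone and 89.3% for replicate 2 alone. At an overlap of at least 150 bp it was 8.06% for both batch 4 libraries, 62.1% for Rb1 with replicate 2 of Rb2, 85.8% for both Rb2 libraries and 66.8% for replicate 2 of Rb2 alone.

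With the chromatin batch as a replicate block, pairing each antibody library with its input, the differences from input were 3.99 in log2 peak number, -74.4 points off the arms and -9.67 points on X (exact permutation test over 2 batches, p = 0.5 each, the smallest possible). With the antibody and replicate number as a replicate block, which pairs by number only, acf1 and WT differed by -1.96 points off the arms, -1.48 on X, -4.33 in own-input peaks, -25.4 in the RSF-1 share and 2.55 on chromosome 4. Each difference kept its direction. Neither block allowed a p-value below the threshold, so that no call could change. What limits all values is that the depth of each library is unknown, so that a missing peak is not an absent signal.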
